A study of Mus musculus with 27 samples.

Results

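In mouse liver, 106 of 111462 quantified transcripts met a rule for being lower after ischemia-reperfusion (IR) than after sham surgery in both genotypes. They were lower in every library taken after IR than in every library taken after sham, in wild-type and in Acly-knockout animals alike. They also met limits on the size of the difference. The members were chosen by their measured levels in TPM (transcripts per 1e6 transcripts), a length-adjusted scale on which each value is a share of all transcripts in its library. A member had its highest value in the 8 IR libraries below its lowest value in the 8 sham libraries, an IR mean of at most 0.7 of the sham mean in each genotype, a knockout IR mean over 0.5 of the wild-type IR mean, and both sham means at 2 TPM or more. The fall itself is therefore a description of these libraries and carries no test. The deposited files identify transcripts by Ensembl transcript identifiers and do not pair them with genes. None of the 106 identifiers was found in the gene tables used here, so the members are given no sequence and carry no gene names and no pathway.

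By its title, the study is about the protection of liver from IR injury by nuclear ATP citrate lyase (ACLY). The 16 RNA libraries used here form 4 groups of 4: wild-type liver (WT) after sham surgery, WT after IR, Alb-cre:Aclyf/f liver (KO) after sham, and KO after IR, all collected 24 hours after surgery. The labels also give the sham livers the treatment Normoxia and the IR livers the treatment Hypoxia-reperfusion. In the KO livers the albumin promoter drives Cre in hepatocytes, where it acts on the floxed Acly alleles, so cells of other types in the tissue largely keep Acly. Neither age nor sex nor the duration of ischemia is given in the sources used here. Whether each library is a different mouse is not in the labels, and p-values therefore measure only the spread between libraries, which may be technical.

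ACLY cleaves citrate outside the mitochondria and yields the acetyl-CoA used for lipid synthesis and for protein acetylation, including that of histones. In liver IR, blood flow is interrupted and restored, and the injury that follows kills hepatocytes and draws leukocytes into the tissue. A transcript level in bulk liver reflects both the number of cells that make the RNA and the amount per cell, and fewer cells of a type and less RNA per cell cannot be told apart here. Without gene names, neither the liver identity of the tissue nor the loss of Acly could be checked on these transcripts.

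Library totals (M, 1e6 estimated counts) were 42.8 to 44.6 M, except for 37.79, 37.9 and 38.22 M in KO IR libraries 1, 2 and 3. The fourth KO IR library had 44.35 M. A mean fragment length was inferred as the median gap between length and kallisto's effective length over long transcripts. It was 178.8 to 194.5 bases in WT sham, 183.1 to 192.1 in WT IR, 181.7 to 184.2 in KO sham and 178 to 183.8 in KO IR libraries. The part of depth and fragment length in the levels below was not tested.

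Relative to the mean of the WT sham libraries, the median member stood at 0.558, 0.51, 0.519 and 0.523 in WT IR libraries 1 to 4. The WT sham libraries themselves ran from 0.916 to 1.03 on this scale. Relative to the mean of the KO sham libraries, the median member stood at 0.389, 0.328, 0.446 and 0.32 in KO IR libraries 1 to 4, against 0.845 to 1.09 in the KO sham libraries. Each of the 4 KO IR libraries thus lay below each of the 4 WT IR libraries, and the KO IR group was the more spread of these. Within KO IR, libraries 1, 2 and 3, of lower total, had medians of 0.389, 0.328 and 0.446. Library 4, of higher total, had the lowest, 0.32. The part of the total in this order was not tested.

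The median of other transcripts was higher after IR in KO on the TPM scale, and in WT it differed from 1 by less than the spread between libraries. Among the 10672 transcripts with both sham means at 2 TPM or more, the median transcript stood at 1.04 of its own sham mean in WT IR livers (SD 0.087, n = 4) and at 1.23 in KO IR livers (SD 0.0792, n = 4). Because TPM values are shares of a fixed sum, the ratios of members and of other transcripts are not independent. When CPM values scaled by the trimmed mean of M-values (TMM) replaced TPM in the rule, 188 transcripts met it, and 90 of the 106 members were among them.

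**Figure D1:**
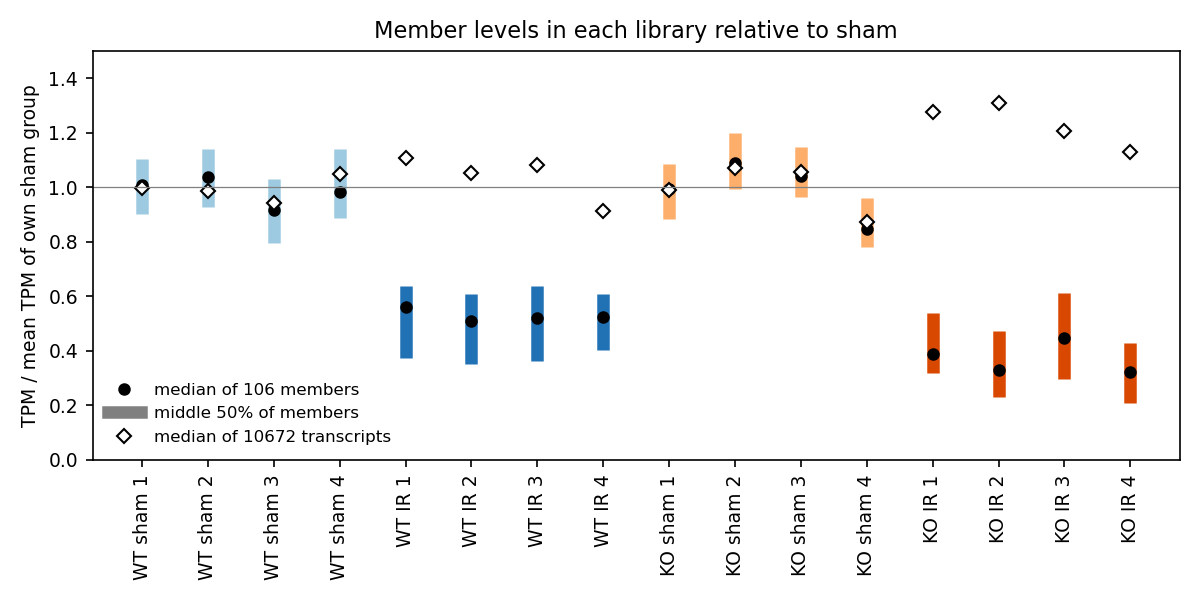
Level relative to the mean of the library's own sham group (vertical axis, a ratio of TPM) in the 16 libraries. Black points are the median of the 106 members, bars span their middle 50%, and open diamonds are the median of the 10672 transcripts with both sham means at 2 TPM or more: the members' medians lie at 0.51 to 0.558 in WT IR and 0.32 to 0.446 in KO IR libraries, while the diamonds of the KO IR libraries lie at 1.13 to 1.31.

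The summed level of the members was 51068, 55907, 50446 and 50750 TPM in WT sham libraries 1 to 4 and 29350, 27798, 26760 and 32127 TPM in the WT IR libraries. It was 56764, 56121, 56451 and 52154 TPM in the KO sham libraries and 27929, 25550, 28462 and 23096 TPM in the KO IR libraries. The sum went from 5.2% ± 0.259 to 2.9% ± 0.234 of all TPM in WT and from 5.54% ± 0.216 to 2.63% ± 0.246 in KO (SD, n = 4). Sham and IR sums did not overlap, which the rule fixes, and the WT IR and KO IR sums did overlap.

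After sham, about as much of this sum came from the most abundant member as from the other 105. ENSMUST00000211875.1, a transcript of 861 bases, stood at 25769, 29717, 26427 and 23714 TPM in WT sham libraries 1 to 4 and at 16546, 15830, 14625 and 19272 TPM in the WT IR libraries. In KO it stood at 29060, 27048, 29246 and 28072 TPM after sham and at 15574, 13611, 13384 and 12005 TPM after IR. Of the KO IR libraries, library 1 lay within the WT IR range and the other 3 below it, and the IR mean was 0.627 of the sham mean in WT and 0.481 in KO. Without it, the other 105 members summed to 25636 ± 1290 TPM in WT sham and 12441 ± 455 TPM in WT IR livers, and to 27016 ± 2110 and 12616 ± 1724 TPM in KO (SD, n = 4).

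**Figure D2:**
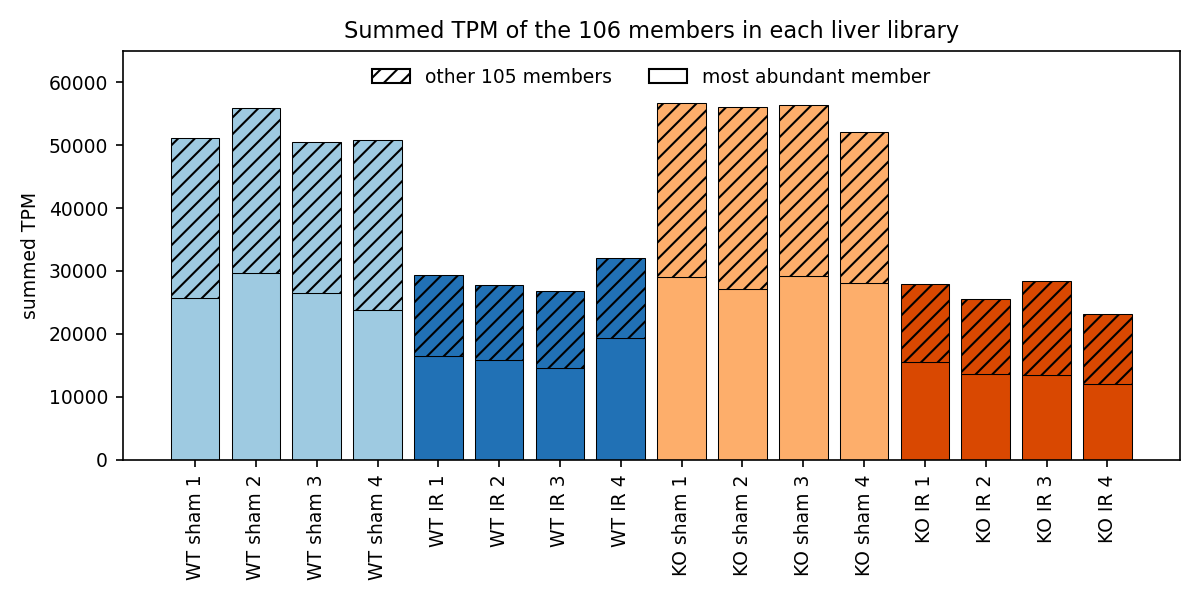
Summed TPM of the 106 members (vertical axis, TPM, from 0) in each of the 16 libraries. The plain part of a bar is ENSMUST00000211875.1 and the hatched part the other 105 members: the sham libraries reach 50446 to 56764 TPM and the IR libraries 23096 to 32127 TPM.

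Among the 100 most abundant transcripts of sham liver, 8 were members, and these 8 were the members at 1000 TPM or more, a level that 93 of the 10672 transcripts reached. The second most abundant member, 553 bases long, stood at 3877, 5068, 3358 and 4249 TPM in WT sham libraries and at 1787, 1788, 1642 and 1699 TPM in WT IR libraries. In KO it stood at 3084, 4836, 4386 and 2593 TPM after sham and at 1990, 1684, 2445 and 1504 TPM after IR. Its WT IR libraries were close together, whereas in KO the lowest sham and the highest IR library were only 2593 and 2445 TPM. The third, 916 bases long, had the highest mean ratio of all members (0.686 in WT and 0.669 in KO), with 2837 to 3343 TPM in WT sham, 1952 to 2308 in WT IR, 2681 to 3147 in KO sham and 1750 to 2066 in KO IR libraries.

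The fourth and the fifth had the same length of 757 bases and identical values in all 16 libraries. Each stood at 2215, 2191, 2458 and 2653 TPM in WT sham and 969.9, 803.2, 819.5 and 812.6 TPM in WT IR libraries, and at 3167, 2985, 1999 and 2628 TPM in KO sham and 1324, 1641, 1752 and 1418 TPM in KO IR libraries. The IR mean of this pair was 0.358 of the sham mean in WT and 0.569 in KO, and all 4 KO IR values lay above all 4 WT IR values. In all, 14 members formed 7 such pairs of equal length and equal values, so the 106 members hold 99 distinct profiles. kallisto divides reads that fit several transcripts between them, so the members of a pair cannot be told apart and their separate levels are uncertain.

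The sixth, of 2344 bases, had a high level after sham and a low ratio. It stood at 1246, 1220, 1071 and 947.1 TPM in WT sham and 248, 219.6, 276.7 and 363 TPM in WT IR libraries. In KO it stood at 2238, 1515, 1674 and 1751 TPM after sham and at 465.9, 336, 642.5 and 255.9 TPM after IR. The ratios of the means were close in the genotypes, 0.247 in WT and 0.237 in KO, and all 4 KO sham libraries lay above all 4 WT sham libraries.

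The lowest mean ratio was that of ENSMUST00000177567.7, a transcript of 2456 bases. It stood at 0.329, 30.38, 15.62 and 7.69 TPM in WT sham libraries 1 to 4 and at 0.013, 0.0168, 0.00445 and 0.0175 TPM in the WT IR libraries. In KO it stood at 9.41, 17.57, 30.72 and 7.73 TPM after sham and at 0.219, 0.000089, 0.3 and 0.0418 TPM after IR. WT sham library 1, with 34.35 estimated counts against 781.5 to 3184 in the other WT sham libraries, lay just above KO IR library 3 with 25.65. Estimated counts were 0.46 to 1.87 in the WT IR libraries, near the limit of detection, so the size of its ratio is not well determined. A member of 2489 bases, 47th by sham level, had more even values: 37.93 to 79.51 TPM in WT sham, 9.73 to 12.64 in WT IR, 48.32 to 78.31 in KO sham and 6.89 to 11.39 in KO IR libraries. Its lowest sham value was 3-fold its highest IR value, the widest gap of any member.

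**Figure D3:**
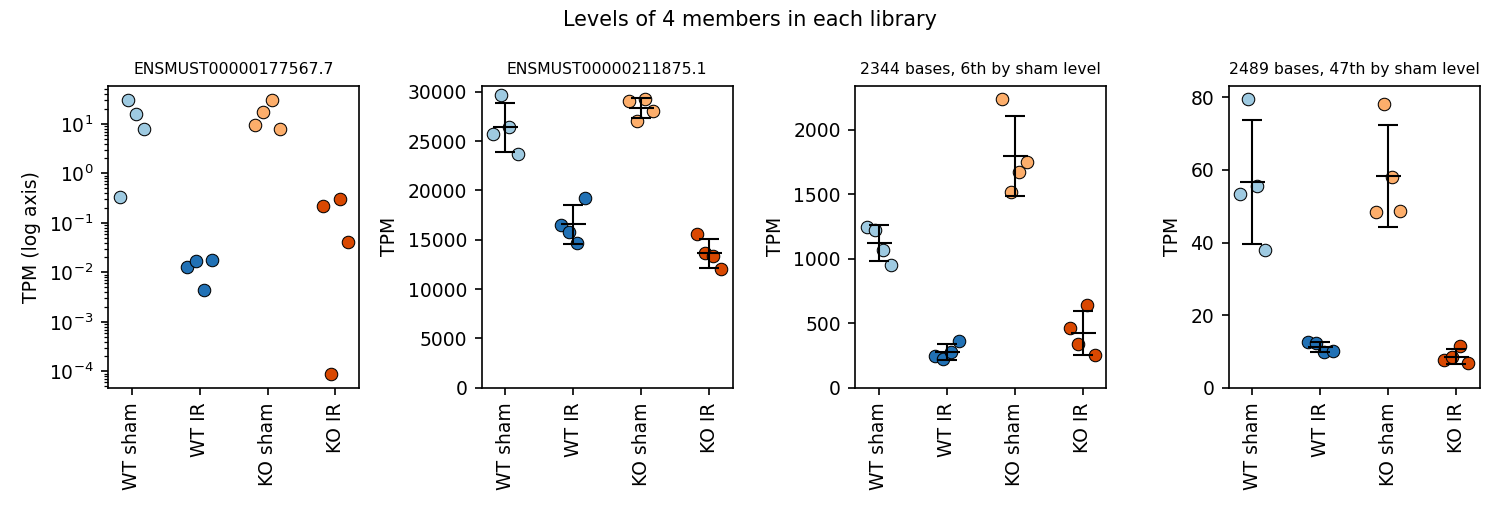
TPM of 4 members in each library (points), by group, with mean and SD (lines, n = 4) except in the first panel, whose vertical axis is logarithmic. ENSMUST00000177567.7 has 1 WT sham library at 0.329 TPM, close to the highest KO IR library at 0.3, while the member of 2489 bases has all sham libraries at 37.93 TPM or more and all IR libraries at 12.64 or less.

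Over all members, the ratio of the IR mean to the sham mean had a median of 0.522 in WT, with quartiles of 0.38 and 0.619, and a median of 0.369 in KO, with quartiles of 0.284 and 0.51. Over the 10672 transcripts the medians were 1.04 and 1.24. Both ratios were under 0.5 for 37 members, the KO ratio alone for 41, the WT ratio alone for 6 and neither for 22. A ratio under 0.25 was found in 11 members in WT and in 20 in KO, with 10 in both. The ratio was lower in KO than in WT for 87 members and lower in WT for 19. The rule leaves out transcripts whose KO IR mean was at or below 0.5 of the WT IR mean, 23 of which met every other condition, so the members do not stand for all transcripts that were lower after IR in both genotypes.

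**Figure D4:**
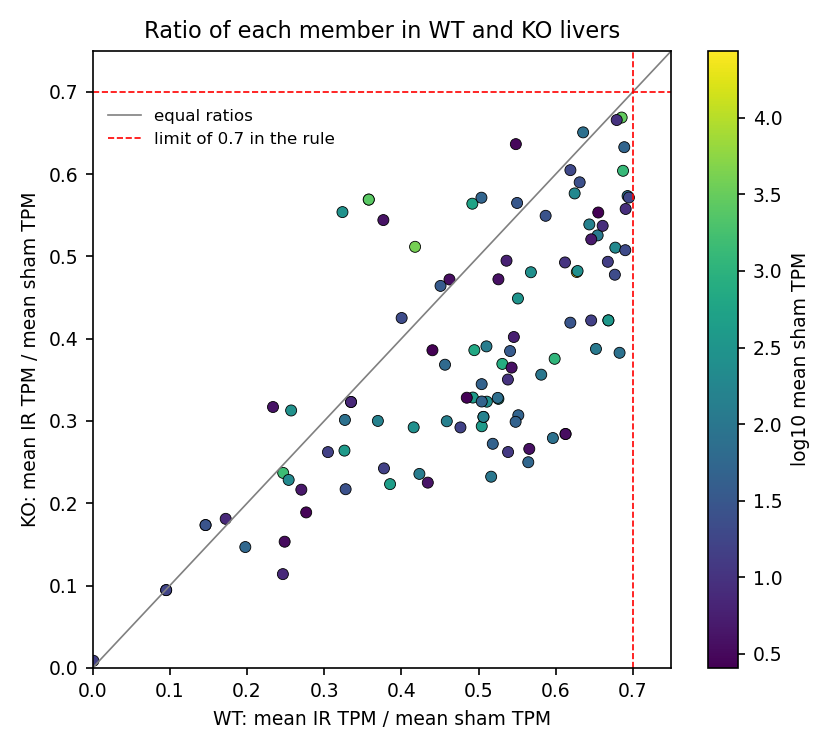
Ratio of the IR mean to the sham mean of TPM in WT (horizontal axis) and KO (vertical axis) for the 106 members, coloured by log10 of the mean sham TPM. Of the points, 87 lie below the grey line of equal ratios, and the dashed lines mark the limit of 0.7 set by the rule.

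The members were more abundant than other transcripts and somewhat shorter. The rule chose them by level and by no overlap in these same libraries, and its part in these differences was not tested. The mean sham level of the members had a median of 45.5 TPM, with quartiles of 10.04 and 199.5, against 6.27 TPM over the 10672 transcripts. The 31 members from 100 to under 1000 TPM had median ratios of 0.51 in WT and 0.356 in KO, the 40 members from 10 to under 100 TPM 0.54 and 0.357, and the 27 members under 10 TPM 0.526 and 0.35. In these 3 classes the KO ratio was the lower one for 28, 32 and 22 members. The 8 members at 1000 TPM or more had 0.508 in WT and 0.54 in KO and a lower KO ratio for 5. With the identical pair counted once, these are 7 profiles with medians of 0.599 in WT and 0.512 in KO, so the order of the genotypes in this class turned on the pair. Counted this way, the medians of all 99 profiles were 0.526 in WT and 0.376 in KO. Median length was 1318 bases for the members and 1745 bases for the 10672 transcripts, and the 42 members under 1000 bases had median ratios of 0.516 in WT and 0.328 in KO, against 0.51 and 0.353 for the 30 of 2000 bases or more.

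Of the 10672 transcripts, 1.51% had all 8 IR libraries below all 8 sham libraries, 161 in number, before the other conditions were applied. For the members, the lowest sham value was a median of 1.16 times the highest IR value. It was under 1.1 times for 33 members and over 2 times for 6. The 2 members nearest to overlap had 1.002 and 1.008, and the 2 transcripts that failed by least had 0.9994 and 0.9979. At the limit of 0.7, the nearest members had ratios of 0.695 and 0.693 in WT and 0.669 and 0.666 in KO, and the nearest transcripts outside it 0.702 and 0.704 in WT and 0.711 and 0.736 in KO. The nearest to 0.5 in the ratio of KO IR to WT IR means were members at 0.503 and 0.51 and transcripts outside at 0.485 and 0.468. The nearest to 2 TPM had lower sham means of 2.46 and 2.48 inside and 1.89 and 1.67 outside. The sham minimum kept 10672 of 111462 transcripts. As the only condition failed, no overlap kept out the most, with 240 transcripts that met all others.

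The members varied among libraries of a group about as much as other transcripts, except after IR in KO. The rule asks for no overlap between sham and IR values, which itself limits the spread of members. The 10672 transcripts were also not matched to the members in level, so these figures are a description. The median coefficient of variation was 19.1% after sham and 14.7% after IR in WT and 17.6% after sham in KO, against 18.3%, 14.9% and 15.7% for the 10672 transcripts. After IR in KO it was 22.2%, against 15.02%. KO IR library 4 held the lowest of the 8 IR values for 37 members and the highest for none, and KO IR library 2 the lowest for 33 and the highest for 1. The highest of the 8 IR values was in WT IR library 1 for 36 members, in KO IR library 3 for 24 and in WT IR library 4 for 21. The lowest sham value was in WT sham library 3 for 35 members and in KO sham library 4 for 28, and the median of all 10672 transcripts was also lowest of its group in those libraries, at 0.941 and 0.872. Deviations from the group mean of log2(TPM + 0.1) had a median pairwise correlation of 0.193 across the 8 sham libraries and 0.279 across the 8 IR libraries for the members, against 0.174 and 0.237 for all pairs of the 10672 transcripts. These correlations share library and depth and are given as a description.

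All 106 members passed edgeR's filter on low counts, and 100 had 10 or more estimated counts in every library. In edgeR's quasi-likelihood fit over the 36041 transcripts that passed, 85 members were called lower after IR in WT, where 0.905% of all transcripts were (Benjamini-Hochberg adjusted p under 0.05), and 106 in KO, where 5.47% were. The WT count was 54 without WT IR library 2, where 140 of all transcripts were called lower. Both contrasts chose the members, so nothing is read from these counts. The median log2 fold change was -1 in WT and -1.78 in KO on the TMM scale, against -0.01 and 0.01 over all transcripts. When library totals replaced TMM, the median of all transcripts after IR in KO moved to 0.3 and the members' median to -1.51, and all 106 stayed below 0 in both genotypes.

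The rule does not compare KO with WT after sham surgery, although it uses both sham means. A high sham mean in either genotype makes the ratio limit of that genotype easier to meet. As the only condition failed, the WT ratio limit kept out 21 transcripts and the KO ratio limit 3. Between KO and WT after sham, no member was called by edgeR, while 0.00832% of all transcripts were, 3 in number. The median log2 fold change of the members was 0.11 on the TMM scale, with quartiles of -0.01 and 0.24, and 79 of 106 members (74.5%) were above 0, against 49.1% of all transcripts and 59.3% of those with both sham means at 2 TPM or more. At an unadjusted p under 0.05, 6 members differed, all higher in KO, where 3.68% of all transcripts differed and 1.87% were higher. The smallest adjusted p among members was 1 in edgeR. DESeq2 called 1 member, of 1990 bases, and 57 of all 36041 transcripts. In TPM, all 4 KO sham libraries lay above all 4 WT sham libraries for 4 members, where 0.843% of the 10672 transcripts did, and below for 2, where 0.403% did. By length the 4 were of 1457, 1990, 2000 and 2344 bases, and the 2 were a pair of 720 bases with identical values, at 8.27, 9.6, 8.64 and 8 TPM in WT sham and 6.04, 6.62, 5.25 and 5.98 TPM in KO sham libraries.

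The member of 1990 bases, 78th by sham level, had the largest such difference. It stood at 9.23, 10.7, 6.67 and 7.02 TPM in WT sham and at 18.25, 14.52, 15.19 and 13.71 TPM in KO sham libraries, with no overlap. Its log2 fold change was 0.9 with SE 0.22 (adjusted p = 1 by edgeR; 0.0497 by DESeq2). After IR it stood at 3.51, 3.99, 4.49 and 6.11 TPM in WT and 5.29, 3.81, 3.92 and 3.15 TPM in KO libraries, which overlapped. The member of 2344 bases, at 1121 ± 139 and 1794 ± 311 TPM in WT and KO sham livers (SD, n = 4), had a log2 fold change of 0.71 with SE 0.27 (adjusted p = 1 by edgeR). ENSMUST00000211875.1 had 0.13 with SE 0.13, and ENSMUST00000177567.7 0.24 with SE 0.83 (both adjusted p = 1 by edgeR). The sign of the latter turned without WT sham library 1 (-0.16) or without KO sham library 3 (-0.22).

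After IR, KO livers had lower levels than WT livers for most members, a comparison that is described only. The rule bounds the ratio of KO IR to WT IR means from below. It also keeps every IR value below every sham value, so transcripts raised by IR in either genotype cannot be members. The 10672 transcripts and all transcripts tested were not held to these limits, so their shares are not like for like with the members' counts. The mean TPM was lower in KO for 91 members and higher for 15, and the median of the ratio of KO IR to WT IR means was 0.813. All 4 KO IR libraries lay below all 4 WT IR libraries in TPM for 17 members, where 3.54% of the 10672 transcripts did, and above for 3, where 25.9% did. On the TMM scale the median log2 fold change was -0.57, and edgeR called 32 members where 4% of all transcripts were called: 29 lower, where 1.78% were, and 3 higher, where 2.22% were. By library totals the median was -0.35, and 17 members and 2639 of all transcripts were called. Leaving out 1 library gave 13 (WT IR 4), 16 (KO IR 2), 19 (KO IR 4), 20 (WT IR 2 or WT IR 3) or 21 (KO IR 1) members called, against 37 without KO IR 3 and 24 to 30 without any of the other 9 libraries. Calls over all transcripts ranged from 596 to 1679 on leaving out 1 library.

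The 3 members called higher in KO IR livers were the pair of 757 bases (851 ± 79.4 TPM in WT IR and 1534 ± 197 in KO IR, SD, n = 4) and a member of 1689 bases (84.9 ± 5.83 and 164.3 ± 29.5 TPM). These upward calls changed when single libraries were left out: there were 0 without WT IR 1, 2, 3 or 4 or KO IR 3, 1 without KO sham 2, KO sham 4, KO IR 2 or KO IR 4, and 2 without KO IR 1. Over all transcripts, 799 were called higher in the reported fit and 316 to 939 on leaving out 1 library. The cause of the changes was not tested. The member of 1689 bases stood at 79.7, 85.45, 92.88 and 81.62 TPM in WT IR and 180.5, 154.4, 194.6 and 127.8 TPM in KO IR libraries, which did not overlap. Its IR mean was 0.324 of the sham mean in WT and 0.554 in KO. The response to IR was not called different between the genotypes for any of the 3 (adjusted p = 0.44 for the member of 1689 bases and 0.554 for the pair, by edgeR's interaction term).

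**Figure D5:**
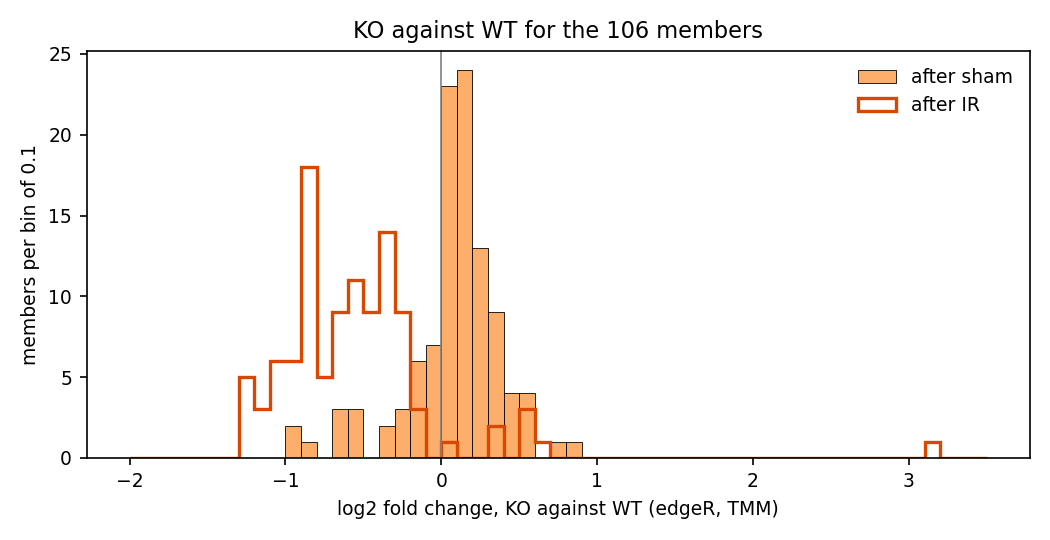
Number of members (vertical axis, per bin of 0.1) by log2 fold change of KO against WT on the TMM scale (horizontal axis), after sham (filled) and after IR (outline). After sham 79 of 106 members are above 0, with a median of 0.11, and after IR 98 are below 0, with a median of -0.57.

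The response to IR differed between the genotypes for 5 members by edgeR's interaction term, where 0.33% of all transcripts were called, and all 5 had the larger decrease in KO, where 0.186% of all transcripts were called in that direction. The rule bounds both responses, so this too is a description. The 43rd member by sham level, of 2573 bases, stood at 91.15, 68.53, 55.17 and 82.75 TPM in WT sham and 49.01, 40.11, 44.03 and 44.33 TPM in WT IR libraries, and at 69.96, 99.61, 100.6 and 60.13 TPM in KO sham and 26.12, 24.1, 25.44 and 16.61 TPM in KO IR libraries. The sham groups overlapped and the IR groups did not, and the log2 response was lower in KO by a difference of -1.39 with SE 0.23 (adjusted p = 0.0207 by edgeR).

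The 53rd, of 3635 bases, stood at 37.18, 49.9, 35.85 and 34.71 TPM in WT sham and 16.29, 21.35, 21.97 and 22.12 TPM in WT IR libraries, and at 44.41, 52.91, 59.66 and 50.8 TPM in KO sham and 16.35, 13.19, 14.5 and 12.53 TPM in KO IR libraries. Here the KO values tended to be the higher ones after sham and the lower ones after IR, with overlap in both, and the difference in log2 response was -1.23 with SE 0.22 (adjusted p = 0.0331 by edgeR). The other 3 were the 39th, 40th and 48th members, of 2319, 892 and 815 bases, with IR means of 0.581, 0.683 and 0.565 of the sham mean in WT and of 0.356, 0.383 and 0.25 in KO. The count of 5 changed when single libraries were left out: it was 16 without KO IR library 3, 0 without WT IR 4, KO sham 2, KO sham 3 or KO IR 2, and 1 to 3 without any other library. Over all transcripts the count was 378 without KO IR library 3 and 51 to 137 without any other library. By library totals it was 2 for the members and 192 for all transcripts.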

How the data were processed

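RNA from 16 liver libraries was analysed. Per the submitters' processing notes, the tools were Trimmomatic and kallisto and the build was mm10, with no versions. Per the file headers, each deposited table lists 111462 transcripts with their length, an effective length, an estimated count and a TPM value. The deposited TPM chose and describe the members. For tests, estimated counts were rounded and fitted with edgeR 4.0.16 (R 4.3.3, limma 3.58.1): filterByExpr by group, TMM scaling, robust quasi-likelihood fit, 1 coefficient per group over all 16 libraries, 12 residual degrees of freedom, Benjamini-Hochberg adjustment over all 36041 transcripts tested, threshold 0.05. Adjusted p-values come from this fit unless DESeq2 or another alternative is named. The SE given with a log2 fold change was derived from the same fit. It is the absolute log2 fold change divided by the square root of the quasi-likelihood F statistic. DESeq2 1.42.0, other filters, library totals, a replicate block and leaving out each library were alternatives. Figures used matplotlib 3.10.9.

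The members, the rule and the tests were chosen with earlier results of these data known. Without gene names, 2 members were named by identifier, the one with the lowest mean of the 2 ratios and the one with the highest sham TPM; other members were singled out by length or rank after their values were seen. Gene lists and cell type markers could not be applied. The 8 peak lists of the CUT&RUN samples have positions but could not be joined to transcripts and were not used here.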

Additional observations from a re-analysis of the deposited data

Results flagged for a closer look

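The summed TPM of the members had 1 library far from the other 3 of its group in both sham groups: WT sham library 2 at 55907 TPM against 50446 to 51068, and KO sham library 4 at 52154 against 56121 to 56764. The total of KO IR library 4, 44.35 M estimated counts, stood far from those of the other KO IR libraries (37.79 to 38.22 M). This library held the lowest of the 8 IR values for 37 of 106 members, and KO IR library 2, at 37.9 M, for 33. Such a gap is met by chance in about 1 in 20 groups of 4, and 24 groups of values were examined. The response to IR differed between KO and WT for 5 members by the test of the interaction, all with the larger decrease in KO, and this count changed when single libraries were left out.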

How the results depend on the processing

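The number of members ranged from 106 to 138 on leaving out 1 library in turn, with at least 97 of the 106 retained, and from 74 to 130 with a ratio limit of 0.6 or 0.8 or a sham minimum of 1 or 10 TPM. It was 188 with TMM-scaled CPM. The count of members called lower after IR was 54 to 91 in WT and 105 to 106 in KO on leaving out 1 library, and the lowest WT count came without WT IR library 2. Over all transcripts these counts were 140 to 406 in WT and 1431 to 2153 in KO. No member was called between KO and WT after sham on leaving out any 1 library, where 0 to 4 of all transcripts were. DESeq2 called 1 member and 57 of all transcripts. For KO against WT after IR the count was 13 to 37 on leaving out 1 library and 17 by library totals. Over all transcripts it was 596 to 1679 and 2639, against 1442 in the reported fit. For the interaction the count was 0 to 16 on leaving out 1 library, 27 by DESeq2 and 3 without the filter on low counts. It was 21 with at least 10 CPM in 4 libraries, where only 79 members were tested, 2 by library totals and 0 with the replicate block. Over all transcripts the interaction was called for 119 of 36041 in the reported fit and for 51 to 378 on leaving out 1 library. It was called for 1085 by DESeq2, 67 of 80837 without the filter, 451 of 7445 with at least 10 CPM, 192 by library totals and 35 with the block. The cause was not tested. For ENSMUST00000177567.7 the log2 fold change of KO against WT after sham turned to -0.16 without WT sham library 1 and -0.224 without KO sham library 3, and ranged from -0.224 to 1.049 on leaving out 1 library. For ENSMUST00000211875.1 after IR the call of KO against WT (log2 fold change -0.56, adjusted p = 0.0323 by edgeR) was lost under 8 of 21 alternatives, with adjusted p of 0.0511 to 0.108: library totals, the replicate block, and without WT IR 1, 2 or 4 or KO IR 1, 2 or 4.

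With the replicate block, 73 members were called lower after IR in WT, 105 in KO, 0 between KO and WT after sham and 22 after IR, with 0 of the latter higher in KO (1 without the filter on low counts, against 3 as reported). Over all transcripts the block gave 215, 1744, 0 and 1129 calls in that order. Libraries of the same number did not deviate together (correlations of -0.0661 to 0.0421 over 24 pairs). Deviations over 4 libraries per group need not show a pairing, so whether the numbers pair the samples remains unknown. Not run were TPM summed per gene and the share of member genes with an H3K27ac peak, since transcripts could not be joined to genes. For the 6 members with under 10 estimated counts in some library, the low values are uncertain, and the reason for them was not tested.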
